A study of Mus musculus with 8 samples.

Results

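Collagen genes were described in early wound scars of mice, and a strain that regenerates hair at a high level was set against one that does so at a low level. The members are all genes whose single paired symbol on the array reads Col, digits, the letter a and digits, with nothing after it. This gave 42 collagen genes of the 20259 genes tested: 11 fibrillar, 9 network, 7 FACIT, 4 transmembrane and 11 other collagens. Whole-skin biopsies of the scars of 4 high-regeneration and 4 low-regeneration mice were hybridised to Affymetrix Exon arrays, 8 arrays in all. The labels do not say whether RNA was pooled. The sources used here give no strain names, alleles, sex, age or day of biopsy, and they name no treatment beyond the wound. Strain and regeneration level cannot be told apart in this design. The labels say nothing of separate litters or batches.

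Collagens are extracellular proteins built of chains that wind around each other into a helix. Fibrillar collagens form the cables that give dermis and scar their tensile strength, network collagens build sheets such as basement membranes, and FACIT collagens sit on the surface of fibrils. Transmembrane collagens span the cell membrane, and further members form beaded filaments, anchoring fibrils or proteoglycan cores. In skin wounds, dermal fibroblasts lay down most of the fibrillar collagen of the scar, while keratinocytes supply part of the basement membrane zone.

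Values are deposited log2 expression values per transcript cluster (the array's unit for a transcribed locus), averaged over the rows of a gene. Differences between groups were taken within a gene, and levels were ranked across genes only as a rough guide to signal. The tissue label fitted its markers: keratinocyte markers averaged 10.95 to 11.07 and fibroblast markers 9.63 to 9.85 over the 8 arrays. Of 12 keratinocyte markers 0 were called higher and 1 lower, Itga6 (log2 difference -0.49, limma adjusted p = 0.0179). Of 15 fibroblast markers 0 were called higher and 1 lower, Thy1 (-0.58, limma adjusted p = 0.0133). Of all genes 1.86% were called higher and 2.47% lower. The low-regeneration arrays were uneven. Skeletal muscle markers averaged 6.71 to 6.91 in the high arrays, against 6.84, 6.76, 9.46 and 10.14 in low 1 to low 4. Adipocyte markers averaged 6.72 to 6.85 in the high arrays, against 6.89, 7.19, 7.98 and 8.06 in low 1 to low 4. Signal of Eif2s3y, a Y-linked gene, was 7.70 in high 4, with 4.08 to 4.22 in the rest of the high group, against 7.67 and 7.57 in low 2 and low 4, with 4.23 and 4.76 in low 1 and low 3. Xist, which coats the silenced X in female cells, was at 6.11 in high 4 and 12.74 to 12.93 in the rest of the high group, against 9.60 and 10.05 in low 2 and low 4, with 12.76 and 12.90 in low 1 and low 3. Low 2 and low 4 thus carried Y-linked signal together with Xist at a level between those of high 4 and the remaining arrays. The cause was not tested. Hair follicle markers averaged 7.90 to 8.74 in the high arrays, against 9.56 to 10.27 in the low arrays. Of these 13 markers 11 were called lower, against 2.47% of all genes, and their part in the results was not tested. Macrophage markers averaged 8.93 to 9.15 in the high arrays, against 8.86 to 9.30 in the low arrays. Of these 9 markers 0 were called lower and 1 higher, Fcgr1 (0.67, limma adjusted p = 0.00729), while Mrc1 stood at -0.68 and did not pass (0.0819). Array medians over all rows were 6.18 to 6.29 in the high group and 6.09 to 6.21 in the low group. In whole biopsies, fewer cells of a type and less RNA per cell cannot be told apart.

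Of the 42 collagen genes, 2 were higher in the high-regeneration scars and 0 were lower (limma, adjusted p under 0.05 over all genes). These were Col24a1, a minor fibrillar collagen, and Col26a1, a collagen first described in mouse testis and ovary. The background was 1.86% of all genes called higher and 2.47% called lower, 4.32% in either direction. At an unadjusted p under 0.05, 12 collagens were higher and 3 lower, against 11.7% and 10.1% of all genes. The high arrays all lay above the low arrays for 5 collagens and all below them for 2, where the same held for 7.19% and 7.29% of all genes. Estimates (high minus low, log2) were positive for 34 of 42 collagens, against 57.2% of all genes. Their median was 0.14, against 0.03 over all genes. Among the 31 collagens above the median gene in level the median was 0.18, against -0.00065 for all genes above it. When arrays were centred on the median of all rows, 27 of 42 estimates were positive, against 41.1% of all genes. The collagen median was then 0.08, against -0.04 over all genes. Without high 4, low 2 and low 4, the arrays with Y-linked signal, 0 collagens passed and the median was 0.14, with 15 genes called in all.

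**Figure D1:**
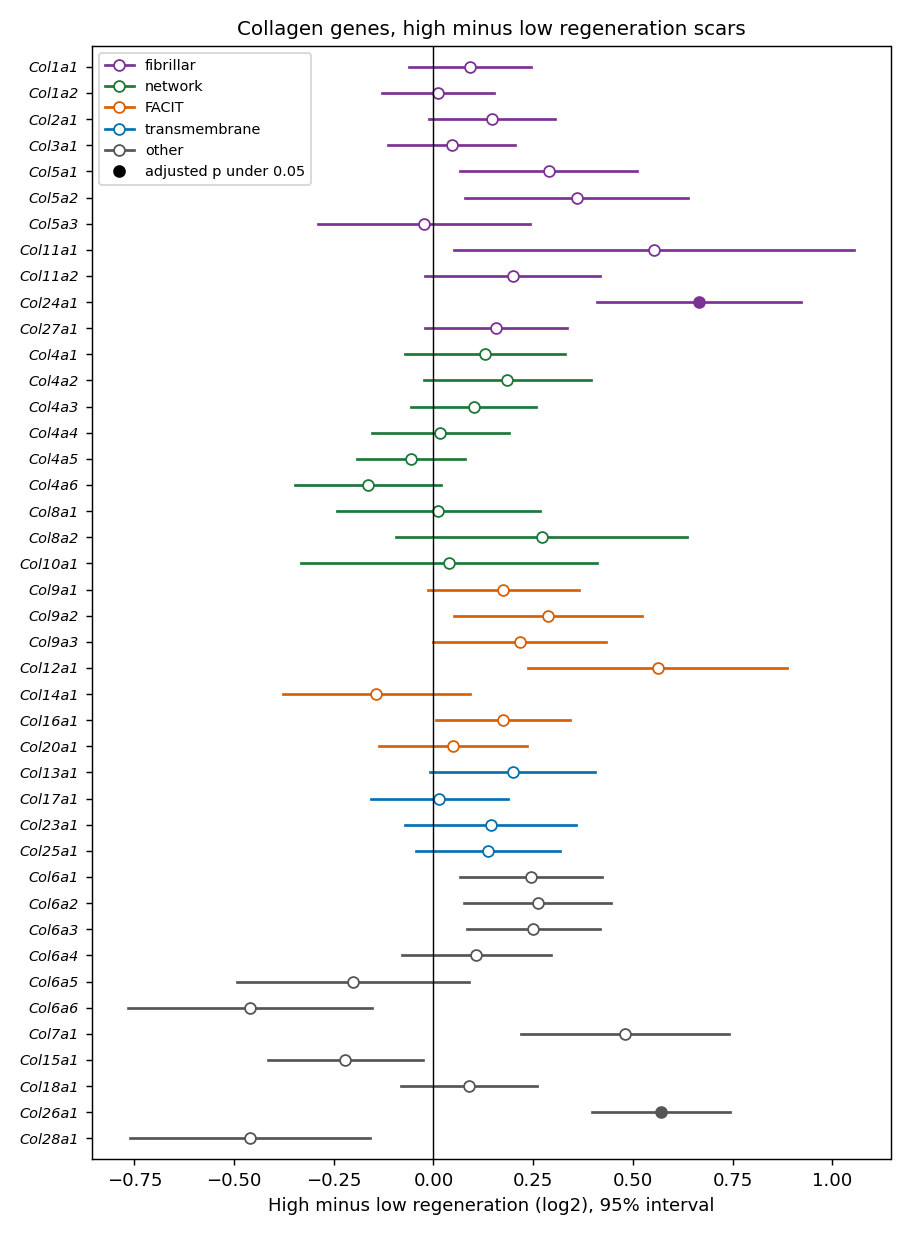
High minus low regeneration in log2 units for the 42 collagen genes, grouped by class from top to bottom, with 95% confidence intervals from limma (n = 4 arrays per group). Filled circles mark Col24a1 and Col26a1, the genes with an adjusted p under 0.05, and the intervals of Col1a1, Col1a2 and Col3a1 sit across 0.

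The intervals also bound the differences that did not pass. For 33 of the 42 collagens the 95% interval of the difference lay within a 1.5-fold change in either direction, and for 21 within a 1.3-fold change.

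The fibrillar class held the largest positive estimate among the collagens and also the main chains of the scar, which differed little. Of its 11 measured members 1 was higher and 0 lower, where 1.86% of all genes were called higher and 2.47% lower. Positive estimates were found for 10, against 57.2% of all genes. The class median was 0.16, against 0.03 over all genes. Col24a1 had values of 8.35, 8.30, 8.56 and 8.63 in the high-regeneration arrays, against 8.03, 7.71, 7.86 and 7.58 in the low-regeneration arrays. The groups did not overlap. The means were 8.46 ± 0.16 in high and 7.80 ± 0.20 in low regeneration (SD, n = 4 each), a 1.59-fold difference (95% interval 1.33 to 1.89; limma adjusted p = 0.0163). The gene did not pass without low 3 and low 4, the muscle-rich arrays, at an adjusted p of 0.0857 and a log2 difference of 0.59. Nor did it pass without high 3 (0.0571) or low 2 (0.0524), with differences of 0.63 and 0.64, or with the muscle marker mean as a covariate (0.0825), with a difference of 0.58. Without high 4, low 2 and low 4, the difference was 0.46 (adjusted p = 0.279). It was measured by a single row.

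The sequence around the start of Col24a1 is set beside that of Col1a2, because these were the fibrillar genes with the largest positive and the smallest difference. Both are RefSeq sequences of GRCm38.p6, plus strand, from 250 bases before to 10 bases after the annotated start. The Col24a1 stretch is chr3:145292222-145292481 and the Col1a2 stretch chr6:4505368-4505627. Capitals mark matches to TGACGTCA, the cyclic AMP response element, which reads alike on both strands, to CCAAT or its reverse complement ATTGG, and to TATAAA or its reverse complement TTTATA.
Col24a1: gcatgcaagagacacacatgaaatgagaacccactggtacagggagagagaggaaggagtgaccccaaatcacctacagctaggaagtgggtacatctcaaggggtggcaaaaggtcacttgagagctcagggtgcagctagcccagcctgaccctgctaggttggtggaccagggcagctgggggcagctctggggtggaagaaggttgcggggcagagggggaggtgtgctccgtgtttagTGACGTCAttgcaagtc
Col1a2: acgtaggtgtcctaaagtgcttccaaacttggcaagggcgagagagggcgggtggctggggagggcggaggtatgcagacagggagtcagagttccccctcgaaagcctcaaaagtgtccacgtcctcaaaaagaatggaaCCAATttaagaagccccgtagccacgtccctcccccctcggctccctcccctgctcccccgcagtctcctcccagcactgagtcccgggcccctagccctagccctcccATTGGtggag
The cyclic AMP response element was found in 1.67% of all 32851 windows of this length, and among the 34 collagen genes with a window it was found in Col24a1 alone. The CCAAT letters were found in 34.6% of all windows and in 13 of the 34 collagen genes, with 2 matches in Col1a2. The TATA letters were found in 12.7% of all windows and in 5 of these 34 genes. The shares over all windows count each window, while a collagen gene was counted if any of its windows matched, so these are unlike measures. The matches describe the letters, and binding was not measured.

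Collagen I, the main fibril of dermis and scar, showed no difference beyond the spread between arrays. Col1a1, its alpha 1 chain, had values of 13.29, 13.22, 13.28 and 13.34 in the high arrays, against 13.33, 13.21, 13.11 and 13.12 in the low arrays. Col1a2, its alpha 2 chain, had values of 12.32, 12.28, 12.38 and 12.41 in the high arrays, against 12.39, 12.28, 12.40 and 12.26 in the low arrays. The ranges of the groups overlapped for both chains. The high over low ratio was 1.07 for Col1a1 (95% interval 0.958 to 1.18) and 1.01 for Col1a2 (0.915 to 1.11). Col3a1, the collagen III chain that is plentiful in young wounds and vessels, had values of 12.03, 11.87, 11.91 and 11.92 in the high arrays, against 11.87, 11.79, 12.04 and 11.85 in the low arrays. Its ratio was 1.03 (0.923 to 1.15), and the highest value of all 8 was in low 3. Across these 3 chains the intervals reached no further than 0.915 and 1.18, and the sign of the estimate turned in some normalizations. Their mean levels were among the highest on the array, at percentiles of 99.98, 99.85 and 99.70 over all genes. Whether the signal flattens at such levels was not tested, so the bounds hold for array signal.

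Collagen V chains, which start fibrils and limit their width, had larger estimates that did not pass. Col5a1 had values of 10.23, 10.07, 10.35 and 10.40 in the high arrays, against 10.19, 9.95, 9.90 and 9.85 in the low arrays. Only low 1 overlapped the high range, and the difference was 0.29 ± 0.10 (SE; limma adjusted p = 0.134). Col5a2 had values of 9.12, 8.56, 8.81 and 8.80 in the high arrays, against 8.39, 8.27, 8.63 and 8.57 in the low arrays. The difference was 0.36 ± 0.12 (adjusted p = 0.140), and low 3 and low 4 lay above high 2. Col5a2 averages a bright and a dim row. In the bright row alone the values were 10.91, 10.75, 10.95 and 11.12 in the high arrays, against 10.74, 10.53, 10.60 and 10.38 in the low arrays, with no overlap (difference 0.37, adjusted p = 0.0727). Col5a3, another chain of this type, stood at -0.02.

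The remaining fibrillar chains are known mainly from cartilage. Col11a1, a chain of cartilage fibrils named after its values were seen, had 7.82, 7.92, 8.66 and 8.76 in the high arrays, against 7.60, 7.54, 7.74 and 8.06 in the low arrays. Its difference of 0.55 ± 0.22 (SE; limma adjusted p = 0.193) came with the widest interval of the 42 collagens, and high 3 and high 4 stood well above high 1 and high 2. Col11a2, Col2a1, the main cartilage chain, and Col27a1 had differences of 0.20, 0.15 and 0.16, with adjusted p-values of 0.258 to 0.283. In Col2a1 and Col11a2, high 3 was the highest array and low 3 the lowest, as in the medians over all rows (6.29 and 6.09). Over 21 alternative settings the Col2a1 difference was 0.08 to 0.18. The high arrays all lay above the low arrays for Col2a1, by less than 0.01 at the closest point. Cartilage markers averaged 6.82 to 6.93 in the high arrays, against 6.66 to 6.94 in the low arrays. Of these 10 markers 0 were called, where 4.32% of all genes were. Their differences ran from -0.29 for Sox9 to 0.39 for Acan, so the mean hides members that part. Acan had 7.50, 7.27, 7.76 and 8.10 in the high arrays, against 7.32, 6.88, 7.22 and 7.64 in the low arrays.

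**Figure D2:**
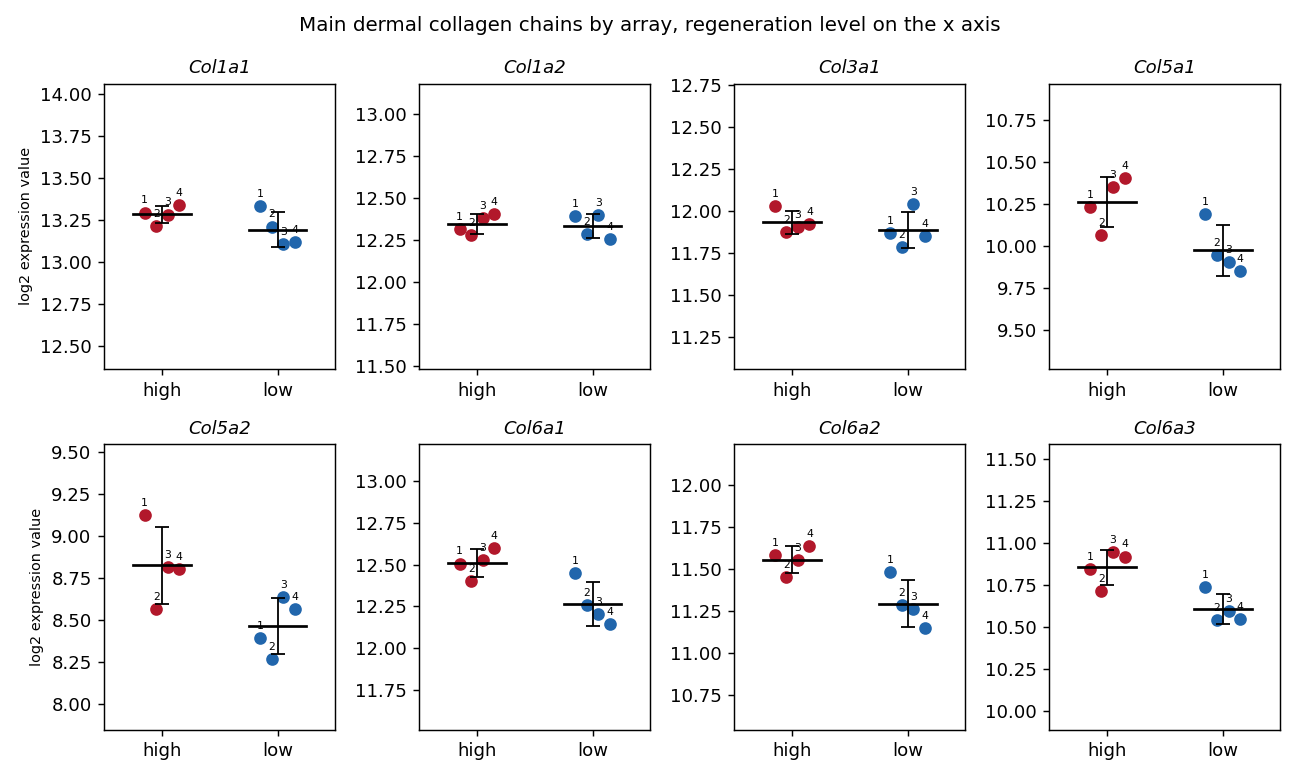
Log2 expression values of the main dermal collagen chains in each array, with the high-regeneration group left of the low-regeneration group. Points are arrays numbered by replicate, lines are group means and bars the SD (n = 4 each), and every panel spans the same log2 range. Col1a1, Col1a2 and Col3a1 overlap between groups, while the collagen V and VI chains have higher means in the high group.

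Among FACIT collagens 0 of 7 measured members passed, where 4.32% of all genes did. Estimates were positive for 6, against 57.2% of all genes, and the class median was 0.18, against 0.03. Col12a1 stood out. It encodes collagen XII, which bridges collagen I fibrils in tissues under strain. Its values were 12.45, 12.34, 12.60 and 12.67 in the high arrays, against 12.28, 11.99, 12.00 and 11.54 in the low arrays. The groups did not overlap, but low 1 came within 0.1 of high 2 and low 4 lay far below the other low arrays. The difference was 0.56 ± 0.14 (SE; limma adjusted p = 0.0622), a 1.48-fold ratio (95% interval 1.18 to 1.85). Without low 3 and low 4 it was 0.38 (adjusted p = 0.194), and without low 1 it was 0.67 and passed (0.0296). Col12a1 was called in 4 of 21 alternative settings, among them quantile normalization and array weights.

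Col14a1, the related collagen XIV of fibril surfaces, was the sole FACIT member with a negative estimate. It had 10.46, 10.29, 10.09 and 10.02 in the high arrays, against 10.36, 10.50, 10.23 and 10.35 in the low arrays, a difference of -0.14 ± 0.10 (limma adjusted p = 0.439). Col9a2, a chain of collagen IX on cartilage fibrils, had 8.26, 8.26, 8.42 and 8.19 in the high arrays, against 8.25, 7.93, 7.76 and 8.05 in the low arrays. Low 1 alone reached the high range. Col16a1, which is found near fibrils and basement membranes of skin, had 9.08, 8.96, 9.07 and 9.04 in the high arrays, against 9.04, 8.80, 8.75 and 8.85 in the low arrays. The differences were 0.29 and 0.18, at adjusted p-values of 0.158 and 0.216. The other collagen IX chains, Col9a1 and Col9a3, had differences of 0.18 and 0.22, and Col20a1 one of 0.05. In each collagen IX chain high 3 was the highest array and low 3 the lowest, as in the medians over all rows. Col19a1 shares its row with another gene, so it is not a member, and no row was paired with Col22a1.

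Of the 9 network collagens 0 passed. At an unadjusted p under 0.05 there were 0, where 11.7% of all genes were higher and 10.1% lower. The class median was 0.04, against 0.03 over all genes. It was -0.03 with arrays centred on the median of all rows, and 0.13 without low 4. Col4a1 and Col4a2, the chains of collagen IV in nearly every basement membrane, had differences of 0.13 ± 0.09 and 0.19 ± 0.09 (SE; limma adjusted p = 0.418 and 0.275). Col4a1 had 9.29, 9.15, 9.37 and 9.52 in the high arrays, against 9.33, 9.17, 9.09 and 9.22 in the low arrays. Col4a2 had 9.23, 9.09, 9.26 and 9.42 in the high arrays, against 9.23, 9.10, 8.92 and 8.99 in the low arrays. The chains ran alike, with high 4 the highest and low 3 the lowest in both. Without high 4 the Col4a1 difference was 0.07. Endothelial markers, from cells rich in these chains, averaged 8.13 to 8.39 in the high arrays, against 7.99 to 8.14 in the low arrays. Of these 10 markers 1 was called higher, against 1.86% of all genes. Their part in the collagen IV values was not tested.

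The other chains of collagen IV, which replace the first pair in specialised membranes such as those of the kidney, lay below the median gene. Col4a3, Col4a4 and Col4a5 had differences of 0.10, 0.02 and -0.06. Col4a6 had 6.26, 6.45, 6.31 and 6.11 in the high arrays, against 6.37, 6.40, 6.49 and 6.53 in the low arrays, a difference of -0.16 ± 0.08 (adjusted p = 0.270). Only high 2 lay inside the low range. Col4a5 and Col4a6 lie on the X chromosome. Without high 4, low 2 and low 4, the arrays with Y-linked signal, the Col4a6 difference was -0.09. The part of this signal in the values was not tested. Col8a2, a chain of the sheets under endothelium, had 6.48, 6.44, 6.81 and 7.10 in the high arrays, against 6.28, 6.66, 6.58 and 6.21 in the low arrays. The groups overlapped (0.27 ± 0.16, adjusted p = 0.354), and the difference was 0.14 without high 4. Its partner Col8a1 and the growth plate collagen Col10a1 had estimates of 0.01 and 0.04.

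All 4 transmembrane collagens had positive estimates, against 57.2% of all genes, and 0 passed, where 4.32% of all genes did. The class median was 0.14, against 0.03 over all genes. Col17a1, the hemidesmosome collagen that holds basal keratinocytes to the basement membrane, had 10.61, 10.74, 10.50 and 10.48 in the high arrays, against 10.64, 10.61, 10.57 and 10.46 in the low arrays. The ratio was 1.01 (95% interval 0.897 to 1.14), and the sign turned in several settings. Keratinocyte markers averaged 10.97 to 11.05 in the high arrays, against 10.95 to 11.07 in the low arrays, with Itga6 alone of 12 called, lower. Col13a1, found at cell contacts and at nerve-muscle junctions, had 7.50, 7.50, 7.72 and 7.56 in the high arrays, against 7.55, 7.41, 7.16 and 7.38 in the low arrays. Low 1 alone overlapped (0.20 ± 0.09, limma adjusted p = 0.244). Col23a1 had 7.47, 7.43, 7.79 and 7.70 in the high arrays, against 7.48, 7.39, 7.36 and 7.58 in the low arrays (0.14, adjusted p = 0.404). Col25a1, known in mouse from motor nerve growth into muscle, had 6.81, 6.68, 6.72 and 6.73 in the high arrays, against 6.80, 6.55, 6.46 and 6.58 in the low arrays (0.14, adjusted p = 0.344). For both genes the ranges overlapped.

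Among the other collagens, Col26a1 had the smallest p-value of the 42 genes. Its values were 8.03, 7.91, 8.05 and 8.04 in the high-regeneration arrays, against 7.48, 7.42, 7.27 and 7.58 in the low-regeneration arrays. The groups were separated by more than the range of either. The means were 8.01 ± 0.07 in high and 7.44 ± 0.13 in low regeneration (SD, n = 4 each), a 1.49-fold difference (95% interval 1.32 to 1.68; limma adjusted p = 0.00771). Without low 3 and low 4 the difference was 0.56 (adjusted p = 0.0176), and without high 4, low 2 and low 4 it was 0.62 and did not pass (0.167). The gene was measured by a single row.

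Col7a1, the chain of the anchoring fibrils that tie epidermal basement membrane to dermis, just missed the threshold. It had 9.83, 9.76, 10.13 and 10.05 in the high arrays, against 9.74, 9.36, 9.40 and 9.35 in the low arrays. Low 1 lay within 0.02 of the lowest high array, and the other low arrays lay close together far below it. The difference was 0.48 ± 0.12 (SE; limma adjusted p = 0.0518), a 1.40-fold ratio (95% interval 1.16 to 1.67). It was 0.57 without low 1, where it passed (0.0223), and 0.39 without low 3 and low 4, where it did not (0.256). Col7a1 was called in 5 of 21 alternative settings, among them median centring and array weights. Col7a1 and Col17a1 serve the same junction. Their differences were 0.48 and 0.01, and the contrast between these was not tested.

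Collagen VI, a beaded filament around cells of dermis, fat and muscle, had nearly equal estimates for its main chains. Col6a1 had 12.51, 12.40, 12.53 and 12.60 in the high arrays, against 12.45, 12.26, 12.21 and 12.14 in the low arrays. Col6a2 had 11.58, 11.45, 11.55 and 11.64 in the high arrays, against 11.48, 11.28, 11.26 and 11.14 in the low arrays. Col6a3 had 10.85, 10.71, 10.94 and 10.92 in the high arrays, against 10.73, 10.54, 10.59 and 10.55 in the low arrays. In each chain low 1 lay above high 2, and the other low arrays lay below all high arrays. The differences were 0.25 ± 0.08, 0.26 ± 0.08 and 0.25 ± 0.07 (SE), ratios of 1.19, 1.20 and 1.19. Adjusted p-values were 0.120, 0.109 and 0.0938 (limma), and 0.0418, 0.0385 and 0.0549 without low 1. Without low 3 and low 4 the differences were 0.16, 0.17 and 0.22 (adjusted p = 0.442, 0.406 and 0.330).

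The later chains of collagen VI ran the other way or stayed near 0. Col6a6, also named after its values were seen, had 7.51, 7.39, 7.32 and 7.08 in the high arrays, against 7.63, 7.81, 7.57 and 8.14 in the low arrays. The groups did not overlap, and low 4, an array rich in muscle and fat markers, was the highest. The difference was -0.46 ± 0.14 (SE; limma adjusted p = 0.0934), and -0.40 without low 3 and low 4 (0.194). Col6a5 stood at -0.20 and Col6a4 at 0.11, with the rows of each gene disagreeing in sign. Col28a1, known in mouse from sheaths around peripheral nerve cells, had 6.82, 6.58, 6.76 and 6.16 in the high arrays, against 7.02, 7.09, 6.93 and 7.12 in the low arrays. All high arrays lay below all low arrays (-0.46 ± 0.13, adjusted p = 0.0894). The 3 rows of Col28a1 differed in size, at -0.21, -0.18 and -0.99, and the brightest row alone gave -0.21 (0.400). Schwann cell markers averaged 7.64 to 7.89 in the high arrays, against 8.09 to 8.27 in the low arrays. Of these 7 markers 3 were called lower, against 2.47% of all genes. Their part in the Col28a1 values was not tested.

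Col15a1 and Col18a1 are the proteoglycan collagens of vessel, muscle and epithelial basement membranes. Col15a1, also named after its values were seen, had 9.42, 9.33, 9.34 and 9.51 in the high arrays, against 9.52, 9.65, 9.49 and 9.83 in the low arrays. The difference was -0.22 ± 0.09 (SE; limma adjusted p = 0.180), with low 3 inside the high range and low 4 highest. Col18a1, the precursor of endostatin, stood at 0.09 ± 0.08 (adjusted p = 0.508).

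**Figure D3:**
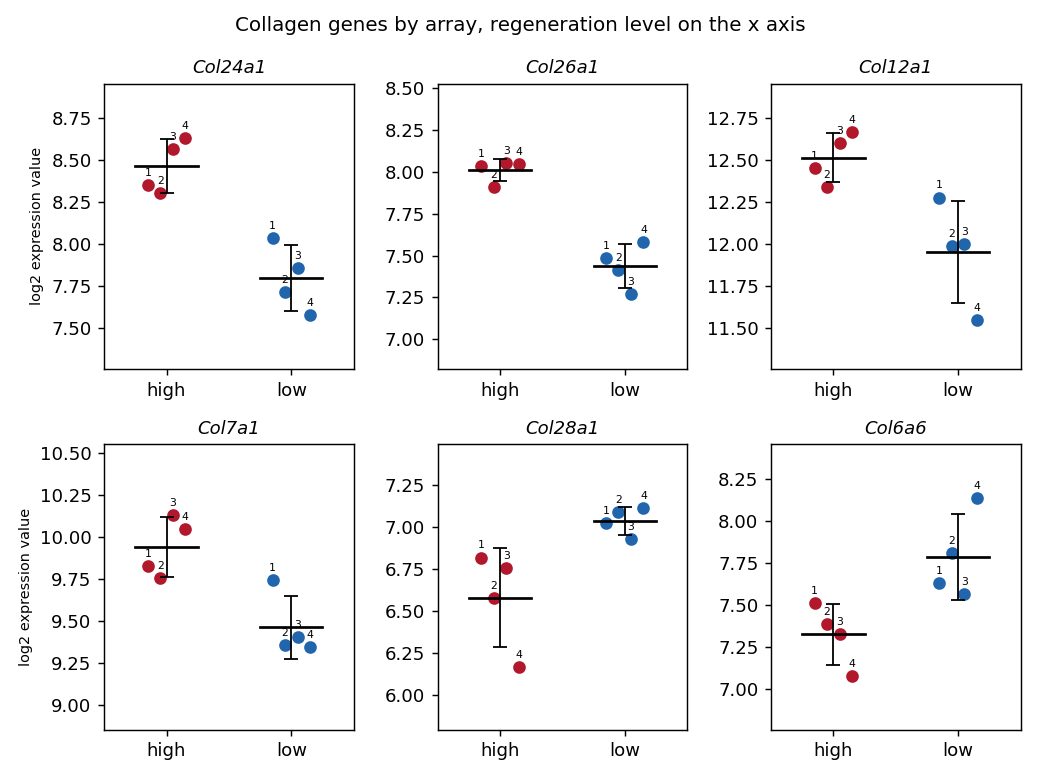
Log2 expression values by array for Col24a1 and Col26a1, which passed the test, and for Col12a1, Col7a1, Col28a1 and Col6a6, which did not pass though their groups do not overlap. Points are arrays numbered by replicate, with the high group left of the low group, lines are means, bars the SD (n = 4 each), and every panel spans the same log2 range.

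Enzymes and receptors that act on collagen were read from a list of 52 genes, of which 47 were measured. Of these 2 were higher and 1 lower, where 1.86% of all genes were called higher and 2.47% lower. Their median difference was 0.15, against 0.03 over all genes. Among 15 genes of prolyl and lysyl hydroxylation 2 were higher, and 14 had positive estimates, as did 57.2% of all genes. Plod2, the lysyl hydroxylase of telopeptides that sets stable crosslinks, had 8.76, 8.89, 8.94 and 8.98 in the high arrays, against 8.47, 8.32, 8.60 and 8.22 in the low arrays. P4ha1, the catalytic subunit of prolyl hydroxylase, had 8.91, 8.82, 8.87 and 8.90 in the high arrays, against 8.56, 8.52, 8.57 and 8.35 in the low arrays. The groups did not overlap for either enzyme, with differences of 0.49 ± 0.09 for Plod2 (SE; limma adjusted p = 0.0228) and 0.37 ± 0.07 for P4ha1 (SE; limma adjusted p = 0.0192) on the log2 scale. Plod2 did not pass without high 2 (0.0543), high 3 (0.0728), high 4 (0.0654), low 2 (0.0704) or low 4 (0.0545), and P4ha1 did not without high 1 (0.0527), high 3 (0.0587), high 4 (0.0568) or low 2 (0.0550), nor without low 3 and low 4 (0.0608). With the muscle marker mean as a covariate the adjusted p was 0.0960 for Plod2 and 0.0920 for P4ha1, and with arrays centred on all rows it was 0.0555 and 0.0593 in that order. Without high 4, low 2 and low 4 it was 0.351 for Plod2 and 0.336 for P4ha1.

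Pcolce2 was the lower gene. It encodes an enhancer of the protease that trims the C-terminal end of procollagen. It had 7.58, 7.69, 7.30 and 7.49 in the high arrays, against 8.11, 8.37, 9.01 and 8.62 in the low arrays, with no overlap. The high over low ratio was 0.496 (95% interval 0.377 to 0.653; limma adjusted p = 0.0176). The highest values were in low 3 and low 4, and without these arrays the difference was -0.72 (adjusted p = 0.0430), against -1.01 with all arrays. It did not pass without high 3 (0.0592), high 4 (0.0503) or low 4 (0.0519), nor with the muscle marker mean as a covariate (0.0676) or without high 4, low 2 and low 4 (0.271). Of 15 listed genes of propeptide cleavage and crosslinking 12 were measured, and Pcolce2 was the sole call. Lox, Pcolce and Adamts2 were not among the measured genes, so nothing is said of them. Folding and export had 0 of 10 measured genes called and collagen receptors 0 of 10, where 4.32% of all genes were called. At that share, lists this short can readily hold 0 calls. Their medians were 0.13 and 0.12, against 0.03 over all genes. Each of these lists held 11 genes, and Itga1 was not among the measured receptors.

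Low 1 was the highest of the low arrays for 23 of 42 collagens and the lowest for 2, and it was the highest for 33.5% of all genes. Low 3 was the lowest for 20 of 42 collagens, and for 35.3% of all genes. Among the high arrays, high 2 was the lowest for 23 of 42, and for 22.9% of all genes. High 3 was the highest of the high arrays for 15 of 42, and for 32.2% of all genes. High 4 was the highest for 13 of 42, and for 25.3% of all genes, and the lowest for 14 of 42, and for 27.9% of all genes. Without low 1, 6 collagens were called higher: Col12a1, Col24a1, Col26a1, Col6a1, Col6a2 and Col7a1. Of all 20259 genes 536 were called higher there, against 376 with all arrays. Without high 3 or without low 2, Col26a1 alone of the collagens was called, with 129 and 130 of all genes called higher in that order. On the reference, 7 pairs of collagen genes are neighbours among protein-coding genes, and in 6 of these the estimates had the same sign. The exception was Col6a5 and Col6a4, and Col6a5 also pairs with Col6a6. With 34 of 42 collagens positive, most pairs of collagens share a sign, and no share over all neighbouring genes was taken. The neighbours Col3a1 and Col5a2 had estimates of 0.05 and 0.36.

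**Figure D4:**
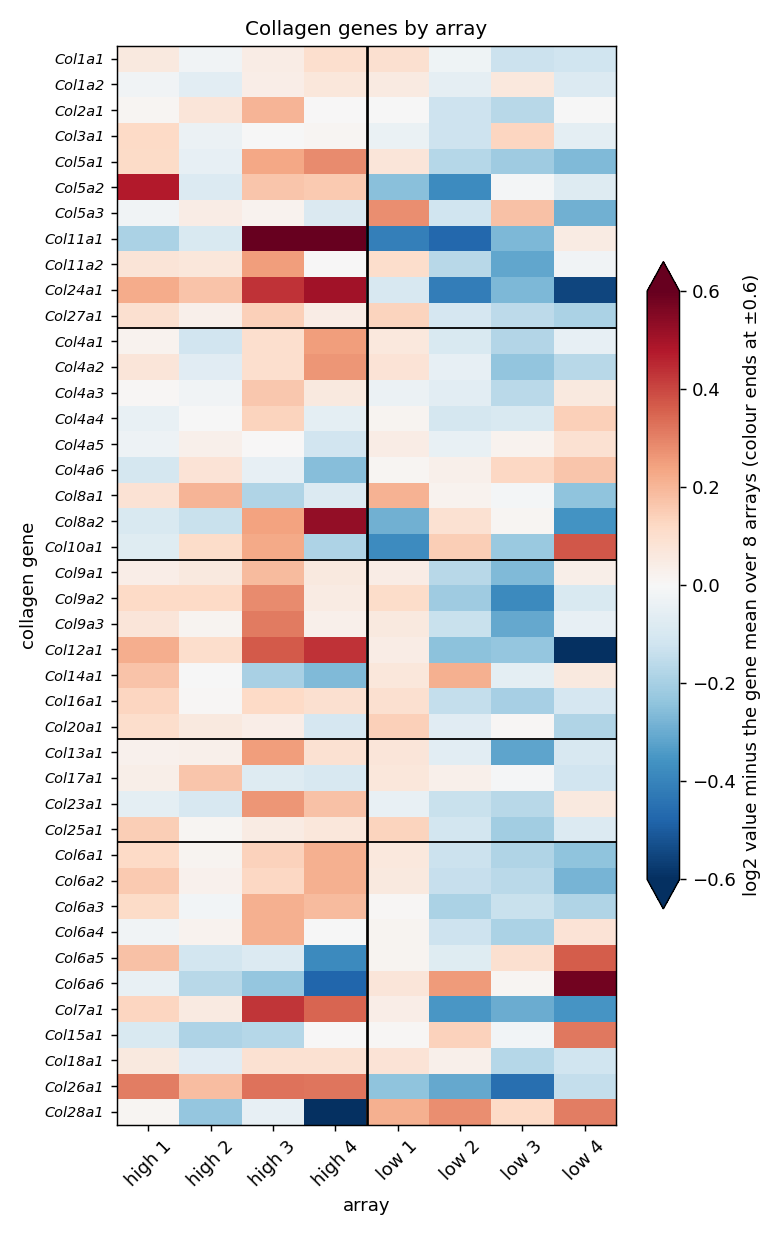
Log2 value of each collagen gene in each array minus its mean over the 8 arrays, red above and blue below, with the high-regeneration arrays left of the black line. Lines across divide the fibrillar, network, FACIT, transmembrane and other classes from top to bottom. Col24a1 and Col26a1 are red in all high arrays and blue in all low arrays, while low 1 is pale or red for many genes that are blue in the other low arrays.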

How the data were processed

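Total RNA of whole-skin scar biopsies was amplified with random primers and biotin-labelled, per the labels' protocols. The authors deposited log2 expression values per transcript cluster. Affymetrix Expression Console and PLIER are named in the submitters' processing notes, without version. How the background was corrected and the arrays were normalized to each other is not stated in the labels. The table has 115830 rows, of which 25539 are paired with 1 gene symbol by the platform annotation and 2300 with several, while 87991 are not listed. Rows with 1 symbol were averaged per gene without a filter on low values, giving 20259 genes, and 5 collagens have several rows. The 42 collagens matched GRCm38.p6, which was used for names, neighbours and sequences. No detection calls were used, low values can hold background, and the number of arrays limits the precision.

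High minus low regeneration was fitted in limma 3.58.1 (R 4.3.3; lmFit and eBayes, two-sided) over all genes with 4 arrays per group, and p-values were Benjamini-Hochberg adjusted over all genes, with calls under 0.05. Every collagen is accounted for. Array values are given for called members, the 3 smallest p-values per class and the main chains of dermis, basement membrane and anchorage, and pathway genes are named when called. Col11a1, Col6a6, Col15a1 and the markers Acan and Sox9 were added after their values were seen. Members, lists and alternatives were chosen with earlier results of these data known. Alternatives took the replicate number for a block, scaled the gene values by quantiles, medians or cyclic loess, and used an eBayes trend, array weights, a level filter, the brightest row, a threshold of 0.1, a muscle covariate and leaving out arrays. Centring and cyclic loess over all rows were added after seeing the data. P-values set the group difference against the spread between these arrays, with the variance of each gene moderated over all genes.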

Additional observations from a re-analysis of the deposited data

Results flagged for a closer look

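In the 84 sets of 4 arrays (42 collagens in each group) 3 held an array far from the other arrays of its group by Dixon's test at the 95% level. Chance flags about 1 in 20 such sets. Col7a1 in low 1 was at 9.74, against 9.35 to 9.40 in the other low arrays. This array lies close to the high group, and the gene passed the test without it. Col26a1 in high 2 was at 7.91, against 8.03 to 8.05 in the other high arrays, and still above all low arrays. Col9a1, a collagen IX chain, was at 7.29 in high 3, against 7.14 to 7.17 in the other high arrays. The cause was not tested.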

How the results depend on the processing

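Col26a1 was called in 20 of 21 alternatives and Col24a1 in 15, and their estimates stayed positive in all 21. Over all alternatives the median of all collagens was 0.08 to 0.18. Of the 42 collagens 32 kept their sign in every alternative run. Collagens called higher numbered 2 in the reported fit. They numbered 1 with the replicate number as a block, without low 3 and low 4, and with the muscle covariate, 0 without low 2, low 4 and high 4, 4 with array weights, and 4 among genes above the median level. Of all 20259 genes 376 were higher in the reported fit. The numbers were 105 with the block, 127 without low 3 and low 4, and 117 with the covariate. They were 5 without low 2, low 4 and high 4, 534 with array weights, and 408 of 10130 genes above the median level. Leaving out single arrays gave 1 to 6 collagens higher, and 129 to 536 of all genes. Collagens called lower numbered 0, and 1 (Col28a1) when centred on all rows. Collagen pathway genes called higher numbered 2. They numbered 0 with the block, with the muscle covariate, without low 2, low 4 and high 4, and centred on all rows, 1 without low 3 and low 4, 5 with array weights, 4 above the median level, 4 with the brightest row, and 0 to 4 without single arrays. Pathway genes called lower numbered 1, and 0 with the block, with the covariate and without low 2, low 4 and high 4, and 0 to 2 without single arrays. At an adjusted p under 0.1 5 collagens were higher and 2 lower, 7 pathway genes were higher and 2 lower, and 1792 genes were called in all. All genes called numbered 876, and 239 with the block, 325 without low 3 and low 4, 15 without low 2, low 4 and high 4, 338 with the covariate, and 292 to 1205 without single arrays. Of all calls in the reported fit 376 were higher and 500 lower, against 212 and 593 centred on all rows and 291 and 628 with cyclic loess over all rows. The network median moved to 0.13 above the median level, where 3 of 9 members were left, and was 0.010 to 0.13 without single arrays. The median of the other collagens was 0.25 above the median level and 0.24 with the brightest row. Small estimates changed sign. Col1a1 was at -0.010 after quantile normalization, -0.011 after cyclic loess and -0.00015 after cyclic loess over all rows. Col1a2 was at -0.049, -0.066 and -0.062 in these, -0.053 centred on all rows, -0.072 without low 2, low 4 and high 4, and -0.014 to 0.034 without single arrays. Col3a1 was at -0.022 after cyclic loess, -0.020 over all rows, -0.019 centred on all rows, and -0.018 without low 2, low 4 and high 4. Col17a1 was at -0.021 after cyclic loess, -0.031 over all rows, -0.050 centred on all rows, -0.041 without low 3 and low 4, -0.046 with the covariate, and -0.038 to 0.049 without single arrays. Nothing says that equal replicate numbers pair mice. Arrays of equal number had correlated deviations of -0.26 to 0.02 and 0 of 4 high arrays correlated best with their own number, so the block result describes numbers only. The level filter and left-out arrays test fewer genes or arrays; otherwise the cause was not tested.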
